A study of Mus musculus with 12 samples.

Results

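The genes described here are the regulators of alternative splicing that fall into 3 protein families, the SR proteins, the heterogeneous nuclear ribonucleoproteins (hnRNPs) and the CDC-like kinases (CLKs), together with *Tra2a*, *Tra2b*, *Rsrp1* and the RNA helicase gene *Ddx39b*. Members were taken by symbol: every gene whose name begins with Srsf and a digit or with Hnrnp, *Clk1* to *Clk4*, and the named extras. This gave 39 of the 17007 genes listed, of which 11 were SR proteins, 3 were SR-related, 20 were hnRNPs, 4 were CLKs and 1 was *Ddx39b*. All 39 passed the filter on low values (0.5 FPKM or more in 3 or more of 12 libraries), as did 14397 genes in all. No row carried the symbol Ddx39a. A row named *Ddx39*, which RefSeq lists as an older symbol of that gene, was not taken as a member, and its values are given separately.

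RNA was sequenced from 4 groups of 3 mice: normal livers (NL), taken from C57BL/6 mice that were wild type, and hepatocellular carcinomas (HCCs) of the c-MYC/MCL1/RictorKO Tsc2KO model, from mice given vehicle (VEH), MLN0128 (MLN) or everolimus (EVE). The tumors arose after hydrodynamic tail vein injection, which carries plasmids (c-MYC, MCL1 and a pCMV-driven Cre) into hepatocytes, while other liver cells of these floxed mice keep *Rictor* and *Tsc2*, so that all 3 tumor groups shared the oncogenes c-MYC and MCL1 and the loss of *Rictor* and *Tsc2*, and normal livers had none of these. Oncogenes, gene loss, injection and gavage therefore cannot be told apart in a comparison of tumor with liver, and the age of the mice is not given in the sources used here. MLN0128, an inhibitor of the mTOR kinase itself, and everolimus, a rapamycin analog that acts on mTORC1, were dosed orally at 1 mg/kg per day. The study holds that loss of *Rictor* leaves mTORC2, the other mTOR complex, inactive in these tumors. It took everolimus to block the p70S6K/RPS6 branch below mTORC1, and MLN0128 to block that branch and the 4EBP1/eIF4E branch. By the sample labels, dosing ran for 3 weeks with 6 dosing days in each, from day 6 after the plasmids, and tissue was taken at 3.7 weeks. The study's text on these sequenced tumors instead names a course of a few days, and the sources used here do not settle which applies, so the length of drug exposure behind each comparison with a drug is uncertain.

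SR proteins bind exonic RNA through an RNA recognition motif and recruit the spliceosome through a domain rich in arginine and serine. The hnRNPs coat nascent transcripts and often oppose splice site use, and CLKs phosphorylate SR proteins in the nucleus. *Clk1* and *Clk4* are also known for a detained intron that holds part of their RNA in the nucleus, and several SR genes carry poison exons through which they limit their own level. FPKM, a level per kilobase of transcript and scaled to the depth of the library, sums all isoforms of a gene, so none of these splicing events was measured here. In bulk tissue, fewer cells of a type and less RNA per cell cannot be told apart.

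The reads recovered per library numbered 17145725 to 25162528, with a median of 18650622, and the members other than *Srsf12* had from 172 reads in their shallowest library upward. *Srsf12* had 0 to 64 reads. The 4 hepatocyte markers (*Alb*, *Ttr*, *Apoa1*, *Cyp2e1*) summed to 79630 to 98550 FPKM in NL and 1595 to 7454 in tumors, and 11 of 11 proliferation genes were higher in VEH than in NL. *Tsc2* was at 4.50 to 5.32 FPKM in NL and 2.01 to 3.96 in tumors, and *Rictor* at 1.65 to 2.57 in NL and 1.05 to 2.21 in tumors, with overlap. Whole-gene values also count exons outside a floxed part and cells without Cre, so they are a weak check of the deletion. They also carry the deposited scaling, described below, which raises NL values relative to tumors, and they were not compared without it. The normal livers thus held hepatocyte RNA as labelled, while the tumors held much less of it. *Xist*, the RNA of the inactive X chromosome, was at 191 and 155 FPKM in MLN replicates 1 and 2 and at no more than 0.0699 in the other 10 libraries, so comparisons with MLN also compared mice of different X content. On the deposited scaling, the summed markers of 3 other liver cell types were lower in tumors (macrophages 98.5 to 111 FPKM in NL and 14.0 to 56.5 in tumors, endothelium 41.4 to 47.8 and 5.08 to 8.42, stellate cells 54.7 to 78.0 and 13.2 to 31.7), and B and T cell markers did not pass the filter. The sums were not recomputed without that scaling, so how far they differ apart from it was not tested. Against these sums, the macrophage marker *Cd68* and the stellate marker *Col1a1*, each 1 of 4 in its list, were higher in VEH than in NL, by 2.31 and 2.98 on the log2 scale. Cholangiocyte markers (*Krt19*, *Epcam*, *Krt7*) summed to 1.20 to 1.66 FPKM in NL, 15.2 to 48.6 in VEH, 0.584 to 3.24 in MLN and 0.681 to 2.99 in EVE, and their part in the results was not tested. Summed proliferation genes were at 157 and 119 FPKM in MLN replicates 1 and 2 and at 284 in MLN replicate 3.

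The deposited FPKM carry a scaling between libraries, with factors of 0.585 to 0.595 in NL and 1.10 to 1.37 in tumors, on top of the total number of reads. With plain library totals in its place, the median log2 difference of all tested genes moved up by 0.56 for VEH against NL, 0.10 for MLN against VEH and 0.10 for MLN against EVE, and by 0.01 for EVE against VEH. Directions below, and the levels and marker sums above, hold for the deposited scaling. With plain totals, 5 members with negative differences between VEH and NL turned positive: *Hnrnph2* (0.65, adjusted p = 0.00339), *Srsf4* (0.45, adjusted p = 0.00673), *Clk3* (0.38, adjusted p = 0.00556), *Rsrp1* (0.36, adjusted p = 0.145) and *Hnrnph3* (0.32, adjusted p = 0.0816). In the drug comparisons the members whose sign turned were called under neither scaling.

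The promoters of members that moved in the comparisons below are shown because c-MYC, with its partner MAX, is known to bind the letters CACGTG, and because these windows let a reader see which members carry them close to the start site. RefSeq windows on GRCm38.p6, from 250 bases before to 50 bases after each transcript start, were found for 36 of the 39 members (48 windows), and not for *Clk1*, *Hnrnpll* and *Hnrnpul2*. CACGTG, which reads the same on both strands, was in 6 of the 48 member windows, or 12.5%, against 7.15% of all 32851 windows. Counted by gene, it was near 6 of 36 members (16.7%) and 8.09% of all 27025 genes. The 6 were *Clk2*, *Hnrnpa3*, *Hnrnpd*, *Hnrnpf*, *Hnrnph2* and *Hnrnpm*. A match describes the letters only and is no evidence of binding. Of these 6, *Hnrnph2* was not called for VEH against NL (log2 difference -0.24) and the others were higher. Whether a match goes with a change was not tested. The 250 bases before the start are printed for *Clk2*, which was above vehicle with both drugs, for *Hnrnpa3*, which was lower with MLN than with EVE, for *Hnrnpd*, which was higher in VEH than in NL, and for *Hnrnpa1*, which had the largest difference from liver and no match, with CACGTG in capitals. The *Clk2* call with EVE depended on single libraries, and the *Hnrnpa3* call on single libraries and on the scaling, as given below.
Clk2, chr3:89164545-89164794, plus strand: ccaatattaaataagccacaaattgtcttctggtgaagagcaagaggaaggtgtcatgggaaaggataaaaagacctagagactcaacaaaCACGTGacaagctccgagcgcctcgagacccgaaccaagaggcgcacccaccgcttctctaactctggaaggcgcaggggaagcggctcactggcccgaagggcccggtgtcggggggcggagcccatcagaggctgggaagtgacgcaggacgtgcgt
Hnrnpa3, chr2:75659009-75659258, plus strand: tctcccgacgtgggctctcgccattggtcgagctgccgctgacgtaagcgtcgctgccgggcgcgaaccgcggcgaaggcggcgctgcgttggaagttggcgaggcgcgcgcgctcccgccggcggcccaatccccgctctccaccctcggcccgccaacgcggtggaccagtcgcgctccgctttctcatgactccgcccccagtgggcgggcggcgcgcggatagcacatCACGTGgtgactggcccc
Hnrnpd, chr5:99978939-99979188, minus strand: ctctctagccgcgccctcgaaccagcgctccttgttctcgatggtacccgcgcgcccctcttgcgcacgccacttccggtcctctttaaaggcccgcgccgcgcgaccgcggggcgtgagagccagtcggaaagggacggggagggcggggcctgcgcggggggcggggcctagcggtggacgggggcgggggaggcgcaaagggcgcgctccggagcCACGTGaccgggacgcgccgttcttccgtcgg
Hnrnpa1, chr15:103240147-103240396, plus strand: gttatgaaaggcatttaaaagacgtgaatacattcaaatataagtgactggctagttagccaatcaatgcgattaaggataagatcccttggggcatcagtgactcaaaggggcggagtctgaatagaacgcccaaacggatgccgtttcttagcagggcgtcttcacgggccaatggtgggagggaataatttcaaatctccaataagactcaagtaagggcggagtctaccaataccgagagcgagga
Counted with the start site as 0, the match began at -159 in *Clk2*, -18 in *Hnrnpa3* and -32 in *Hnrnpd*. A second pattern, a C at the start site followed by 4 bases that are each C or T, is that of terminal oligopyrimidine mRNAs, whose translation mTORC1 is known to control. Read on the strand with the sequence of the mRNA, it was found for *Hnrnpa0* and *Srsf5*, 4.17% of member windows against 2.51% of all windows. No member window held both patterns.

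In NL, the member with the highest mean level was *Rsrp1*, an arginine- and serine-rich protein gene, at 101, 101 and 165 FPKM. *Hnrnpa2b1*, *Hnrnpab* and *Srsf5* followed with means of 88.3, 77.5 and 64.0 FPKM. The ranges of *Rsrp1* and of *Hnrnpa2b1* (85.4 to 91.7 FPKM) did not overlap, whereas *Hnrnpab* (69.2 to 85.7) overlapped with both *Hnrnpa2b1* and *Srsf5* (56.7 to 76). In VEH the order had changed, with *Hnrnpab* (142 FPKM), *Hnrnpa2b1* (136) and *Hnrnpa1* (129) on top, and *Rsrp1* at rank 6 with a mean of 81.2 FPKM. In VEH the range of *Hnrnpa1* (116 to 145 FPKM) overlapped with those of *Hnrnpab* (141 to 144) and *Hnrnpa2b1* (129 to 140), which did not overlap with each other. The 39 members summed to 1023 to 1130 FPKM in NL and 1573 to 2155 FPKM in tumors. The hnRNPs took 53.9% to 61.3% of that sum in NL and 59.2% to 68.2% in tumors. The CLKs took 3.22% to 4.53% in NL and 1.12% to 2.30% in tumors, with no overlap, and shares within a library do not depend on the scaling.

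**Figure D1:**
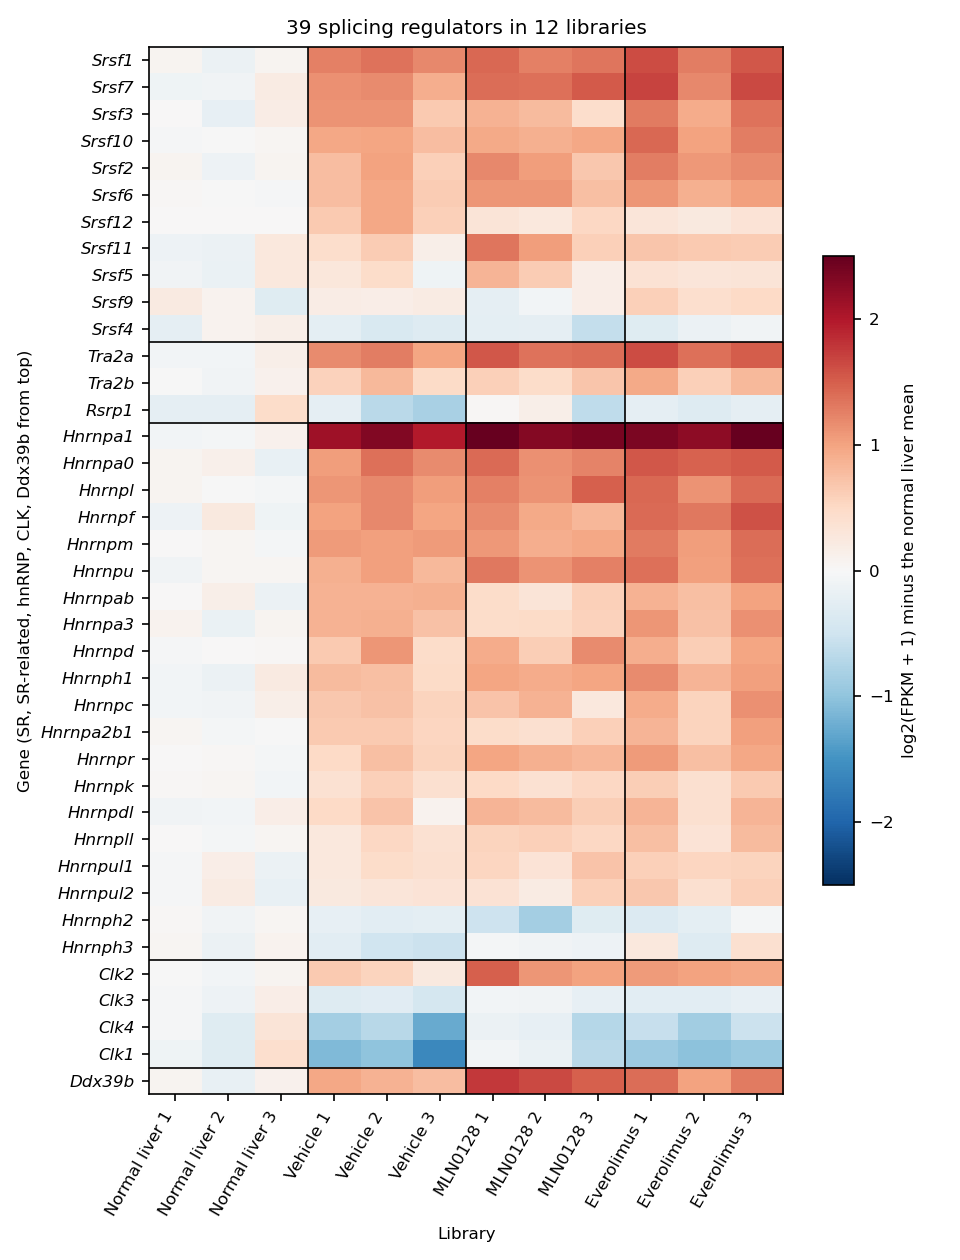
Each cell gives the level of a gene (row) in a library (column) as log2(FPKM + 1) minus the mean of the 3 normal livers, and lines part the 5 gene classes and the 4 groups. Most SR and hnRNP rows are red in all 9 tumors, *Hnrnpa1* most of all, while *Clk1* and *Clk4* are blue in the vehicle tumors.

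For VEH against NL, the question was how the tumor differs from the tissue it arose in. Most members were higher in the tumor: 28 of 39 were higher, 4 were lower and 7 were not called, where 36.0% of all tested genes were higher and 33.0% lower (limma's moderated test, Benjamini-Hochberg adjusted p under 0.05). The median log2 difference of the members was 0.65, against 0.06 over all tested genes. By class, 7 of 11 SR proteins and 17 of 20 hnRNPs were higher, with 0 SR proteins and 1 hnRNP lower, whereas 3 of 4 CLKs were lower and 1 was higher. The 28 higher members and the 7 higher SR proteins include *Srsf12*, whose direction was fixed by the filter, as described below. Against a fold change of 1.5 (limma's treat test), 10 members were higher and 1 was lower, beside 15.9% and 16.9% of all tested genes. All 3 VEH libraries lay above all 3 NL libraries for 28 members, *Srsf12* again among them, and below them for 6, beside 39.0% and 35.1% of all tested genes. With plain library totals, an alternative chosen after seeing the data, 35 members (*Srsf12* included) were higher and 0 lower, beside 61.3% and 15.2% of all tested genes. With each library's FPKM rescaled to the same sum, 37 were higher and 0 lower, beside 67.0% and 11.7%.

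The largest difference was that of *Hnrnpa1*, an hnRNP that competes with SR proteins for splice site choice, which was at 27.2, 27.3 and 30.9 FPKM in NL and 127, 145 and 116 in VEH. Each VEH value was several times each NL value, and the log2 difference was 2.14 (SE 0.13, adjusted p = 1.14e-07). The annotation names 2 pseudogenes after it, whose reads the counting may share with it. *Hnrnpa0*, which binds AU-rich elements in mRNA, rose from 45.3, 47.7 and 37.9 FPKM in NL to 91, 114 and 100 in VEH, a log2 difference of 1.20 (SE 0.13, adjusted p = 7e-06). The groups of *Hnrnpa0* lay far apart. *Hnrnpl*, which binds CA repeats, went from 20.3, 19.2 and 18.6 FPKM to 42.5, 46.1 and 41.2 (log2 difference 1.12, SE 0.13, adjusted p = 9.32e-06). *Hnrnpf*, which binds runs of G, went from 33.9, 43.7 and 34.1 FPKM to 75, 86 and 74.5 (1.06, SE 0.14, adjusted p = 3.64e-05). For both genes the lowest VEH library was well above the highest NL library.

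Among the SR and SR-related genes, *Srsf1*, the founding SR protein and a known proto-oncogene, was at 25.3, 21.9 and 25.6 FPKM in NL and 59.6, 63.8 and 57 in VEH. The log2 difference was 1.28 (SE 0.12, adjusted p = 2.48e-06), with every tumor above every liver. *Srsf7*, which also takes part in mRNA export, was at 21, 21.5 and 26.4 FPKM in NL and 51.9, 53.4 and 43.7 in VEH (1.08, SE 0.15, adjusted p = 5.55e-05). *Tra2a*, a homolog of the fly sex determination factor transformer-2, was at 5.59, 5.6 and 6.64 FPKM in NL and 14.8, 15.9 and 12.8 in VEH (1.16, SE 0.12, adjusted p = 4.47e-06). In *Srsf7* and *Tra2a* VEH replicate 3 was the lowest VEH library, as it was for 28 of the 39 members, and it still lay above the livers.

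The other members that rose were, by log2 difference, *Hnrnpm* (1.05), *Srsf3* (0.97), *Hnrnpu* (0.91), *Srsf10* (0.91), *Hnrnpab* (0.87), *Ddx39b* (0.87), *Hnrnpa3* (0.83), *Srsf2* (0.79), *Srsf6* (0.79), *Hnrnpd* (0.73), *Hnrnph1* (0.67), *Hnrnpc* (0.65), *Tra2b* (0.62), *Hnrnpa2b1* (0.62), *Hnrnpr* (0.60), *Clk2* (0.48), *Hnrnpk* (0.46), *Hnrnpdl* (0.43), *Hnrnpll* (0.38), *Hnrnpul1* (0.38) and *Srsf12* (0.74). *Srsf12* was listed at 0 in all 3 NL libraries and at 0.578, 0.964 and 0.518 FPKM in VEH, and it passed the filter only through VEH, so its direction was fixed by the filter. Without it, 27 members were higher. The members that were not called were *Srsf11* (0.41), *Hnrnpul2* (0.29), *Srsf5* (0.21), *Srsf9* (0.19), *Hnrnph2* (-0.24), *Srsf4* (-0.32) and *Rsrp1*.

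The 4 lower members were *Clk1*, *Clk4*, *Hnrnph3* and *Clk3*. *Clk1*, the best studied of the CLKs, was at 16.6, 14.5 and 24.4 FPKM in NL and 7.88, 8.48 and 5.22 in VEH, a log2 difference of -1.24 (SE 0.22, adjusted p = 0.000317). *Clk4*, its closest relative, was at 14.1, 11.4 and 18.3 FPKM in NL and 7.54, 8.54 and 5.4 in VEH (-0.93, SE 0.21, adjusted p = 0.00188). Both genes were highest in NL replicate 3 and lowest in VEH replicate 3, and no VEH tumor reached the lowest liver. *Clk3*, a kinase also known from male germ cells, was at 4.41, 4.05 and 5.16 FPKM in NL and 3.44, 3.56 and 3.05 in VEH (-0.35, SE 0.11, adjusted p = 0.0121). It lost the call without NL replicate 3 (-0.27, adjusted p = 0.0528) or without VEH replicate 3 (-0.30, adjusted p = 0.0513), and 2 members were then lower in each case. *Hnrnph3*, of the G-run binding H and F group, had a log2 difference of -0.44 (adjusted p = 0.0367).

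With plain library totals 0 of these 4 were called lower, as *Clk1* was at -0.38 (adjusted p = 0.101) and *Clk4* at -0.08 (adjusted p = 0.707), while *Clk3* and *Hnrnph3* turned to 0.38 and 0.32. Measured from the median of all tested genes, *Clk1* lay 1.30 below it on the log2 scale as deposited and 1.00 below it with plain totals, and *Clk4* 0.99 and 0.70 below it. *Clk2*, by contrast, was at 3.12, 2.94 and 3.35 FPKM in NL and 5.53, 5.08 and 3.87 in VEH, all tumors above all livers, with a log2 difference of 0.48 (SE 0.14, adjusted p = 0.0104) that was 1.17 with plain totals. *Rsrp1* was at 101, 101 and 165 FPKM in NL and 102, 73.9 and 67.7 in VEH. The groups overlapped and the difference of -0.57 (SE 0.24, adjusted p = 0.0538) was not called, with a reversal to 0.62 when FPKM were rescaled to the same sum per library. It was called without NL replicate 1 (-0.69, adjusted p = 0.0467), NL replicate 2 (-0.69, adjusted p = 0.0448) or VEH replicate 1 (-0.74, adjusted p = 0.0264).

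*Ddx39b*, the helicase UAP56 that loads the export machinery onto spliced RNA, was at 19.1, 15.7 and 19.6 FPKM in NL and 36.4, 33.8 and 31.4 in VEH (adjusted p = 0.00013). All tumors were above all livers. The row named *Ddx39*, for the paralogous helicase, was at 4.21, 3.36 and 2.94 FPKM in NL and 25.2, 25.6 and 24.9 in VEH, a log2 difference of 2.55 (SE 0.13, adjusted p = 2.33e-08). In NL *Ddx39b* was the more abundant of the pair in every library and in VEH it still was, by a smaller ratio.

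**Figure D2:**
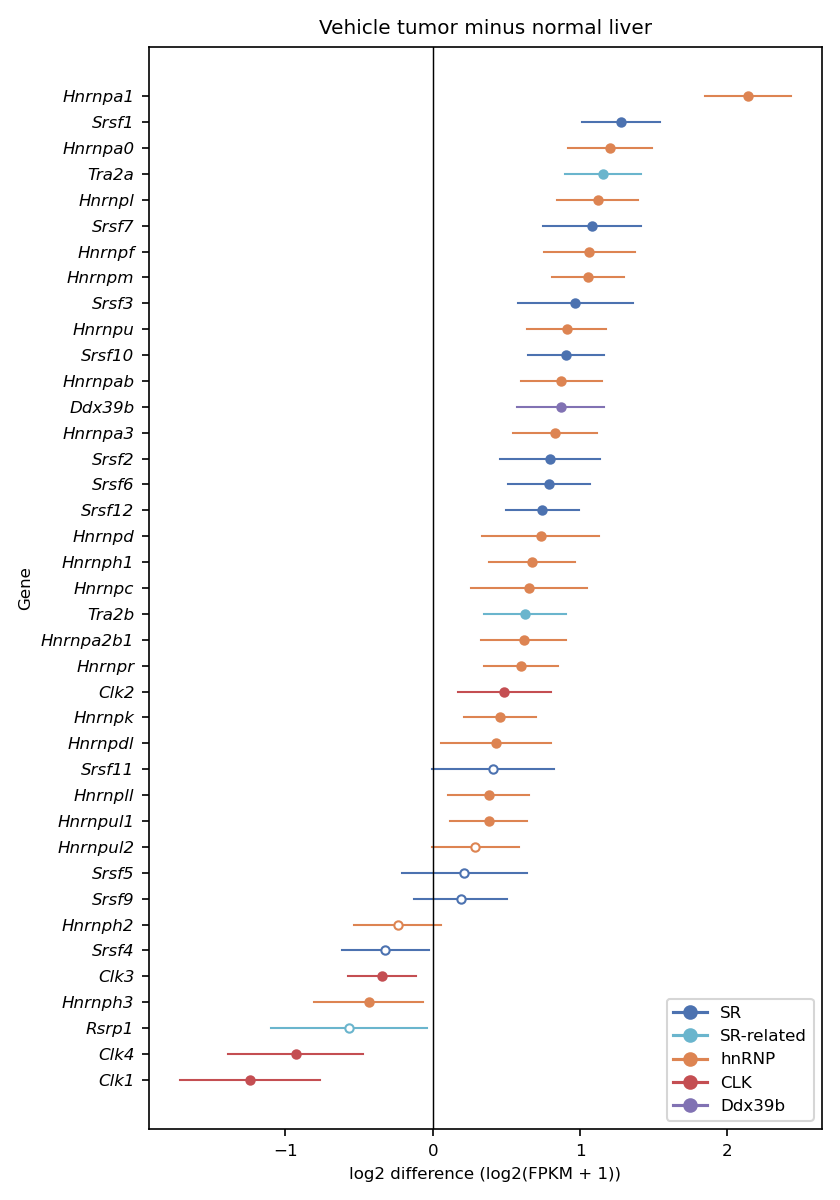
Points give the log2 difference between vehicle tumors and normal livers for each of the 39 members on the log2(FPKM + 1) scale, lines its 95% confidence interval, colors the class, and filled points an adjusted p under 0.05. *Hnrnpa1* stands at 2.14 at the top, and *Clk4* and *Clk1* stand at -0.93 and -1.24 at the bottom.

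The rest of the splicing machinery was also mostly higher in VEH, apart from the mRNA export list, where 36.0% of all tested genes were higher. Of the proteins of the U snRNPs, the core particles of the spliceosome, 11 of 12 were higher and 0 lower, with a median log2 difference of 1.13. *Snrpd1*, a Sm ring protein, was at 1.71 and *Snrpa1*, of the U2 particle, at 1.56. Of the SF3 and U2AF proteins, which recognize the branch point and the 3′ splice site, 11 of 13 were higher and 1, *Sf3b6* (-0.43), was lower. Of the tri-snRNP proteins, 10 of 11 were higher and 0 lower, with *Eftud2*, the U5 GTPase, at 1.94. Of 33 other splicing regulators tested, 20 were higher, among them *Ptbp1* (1.44), the polypyrimidine tract binding protein, and 3 were lower: *Luc7l2* (-0.70), *Mbnl1* (-0.54) and *Qk* (-0.39). Nonsense-mediated decay, which removes poison exon transcripts, had 8 of 10 genes higher and 0 lower, with *Smg1* at 1.5. Of the TREX and mRNA export list, 4 of 12 were higher and 0 lower, near the share of all tested genes, with a median of 0.16 and *Alyref* at 1.53. With treat, 6 of the 33 other splicing regulators were higher, beside 15.9% of all tested genes.

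The SR protein kinases outside the CLK family were higher in 4 of 5 cases. *Srpk1*, the cytoplasmic kinase that sends SR proteins to the nucleus, was at 2.63, 2.85 and 2.65 FPKM in NL and 10.4, 10.8 and 9.95 in VEH. The log2 difference was 1.62 (adjusted p = 5.29e-07), opposite in sign to those of *Clk1*, *Clk3* and *Clk4* on the deposited scale. *Dyrk1b* was lower (-0.73, adjusted p = 0.00609). These lists, like the members, are described by counts alone, to be read beside the 36.0% of all tested genes that were higher.

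For MLN against VEH, the question was what blocking the mTOR kinase did to these genes in the tumor. Of the 39 members, 4 were higher (*Clk1*, *Ddx39b*, *Clk2* and *Srsf11*) and 2 were lower (*Hnrnpab* and *Srsf12*), where 14.9% of all tested genes were higher and 17.1% lower. The median log2 difference of the members was 0.18 against -0.01 over all tested genes, and 27 of 39 were above 0, beside 7058 of 14397 tested genes. All 3 MLN libraries lay above all 3 VEH libraries for 11 members and below them for 4, beside 22.1% and 23.4% of all tested genes. With treat against a fold change of 1.5, 0 were called, beside 0.479% of all tested genes higher and 1.65% lower. At an unadjusted p under 0.05 in limma, 10 were higher and 4 lower, beside 20.6% and 22.3%. The 4 below and the 4 lower each include *Srsf12*, whose direction was fixed by the filter.

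*Clk1* was at 7.88, 8.48 and 5.22 FPKM in VEH and 17.3, 16.1 and 11 in MLN, with no overlap and with MLN replicates 1 and 2 inside the range of NL. The log2 difference was 0.95 (SE 0.22, adjusted p = 0.00704). *Clk2*, a CLK also known as a regulator of hepatic gluconeogenesis, was at 5.53, 5.08 and 3.87 FPKM in VEH and 10.6, 7.87 and 7.3 in MLN, likewise without overlap (0.71, SE 0.14, adjusted p = 0.00361). *Clk4* was at 12.9, 12.4 and 8.33 FPKM in MLN, of which the last lay within the VEH range, and its difference of 0.58 (SE 0.21, adjusted p = 0.0538) was not called. *Clk3* was at 4.3, 4.22 and 3.8 FPKM in MLN, above every VEH library, and was not called (0.23, SE 0.11, adjusted p = 0.117). The 4 CLKs thus had positive differences, of which those of *Clk1* and *Clk2* passed. Under plain totals all 4 passed, *Clk4* at 0.72 (adjusted p = 0.0111) and *Clk3* at 0.36 (adjusted p = 0.0191).

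*Ddx39b* was at 63.8, 59.2 and 52.6 FPKM in MLN, each above all VEH libraries, which reached 36.4, a log2 difference of 0.77 (SE 0.14, adjusted p = 0.00175). The row *Ddx39* moved the other way, at 17.1, 16.9 and 20.1 FPKM in MLN (-0.47, SE 0.13, adjusted p = 0.016), so that the paralogs differed in sign. *Srsf11*, counted here as an SR protein and known to contact U2AF, was at 17.4, 20.1 and 14.1 FPKM in VEH and 33.3, 27.2 and 19.5 in MLN. The groups overlapped through MLN replicate 3, and the difference was 0.59 (SE 0.19, adjusted p = 0.0339). *Rsrp1* was at 121, 131 and 76.6 FPKM in MLN, overlapping with VEH (0.41, SE 0.24, adjusted p = 0.215).

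*Hnrnpab*, an hnRNP of the A and B group, was at 141, 142 and 144 FPKM in VEH and 106, 96.5 and 117 in MLN. The fall was the same in direction in all 3 libraries (-0.42, SE 0.12, adjusted p = 0.0243), and it was no longer called with plain library totals (-0.27, adjusted p = 0.153) or without any 1 library other than MLN replicate 3 (-0.35 to -0.43, adjusted p 0.0547 to 0.0715). *Srsf12* was at 0.257, 0.194 and 0.438 FPKM in MLN, below each VEH library (-0.37, SE 0.11, adjusted p = 0.0256), and since VEH alone carried it past the filter, that direction is no support for a change. Without it 1 member was lower.

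MLN replicate 3 was the lowest of the MLN libraries for all 4 CLKs, *Ddx39b* and *Srsf11*. With that library as the only MLN sample, its spread taken from the other groups, 0 members were higher and 0 lower, with *Clk1* at 0.57 (adjusted p = 0.216), *Clk2* at 0.52 (adjusted p = 0.081) and *Ddx39b* at 0.62 (adjusted p = 0.0627); without it, 7 were higher and 3 lower, *Clk4* (0.76, adjusted p = 0.018) and *Rsrp1* (0.65, adjusted p = 0.0498) among the former. Without VEH replicate 2, 6 were higher and 0 lower. No share of all tested genes was computed for fits that left out libraries, so these counts cannot be called particular to the members. The part of X content and of proliferation in these differences was not tested. With plain library totals 16 members were higher and 1 lower, beside 23.1% and 12.7% of all tested genes, and the difference of *Clk1* was 1.10. The lower member was *Srsf12* (-0.36, adjusted p = 0.0426), whose direction was fixed by the filter. With FPKM rescaled to the same sum 19 were higher and 0 lower, beside 24.6% and 8.81%.

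**Figure D3:**
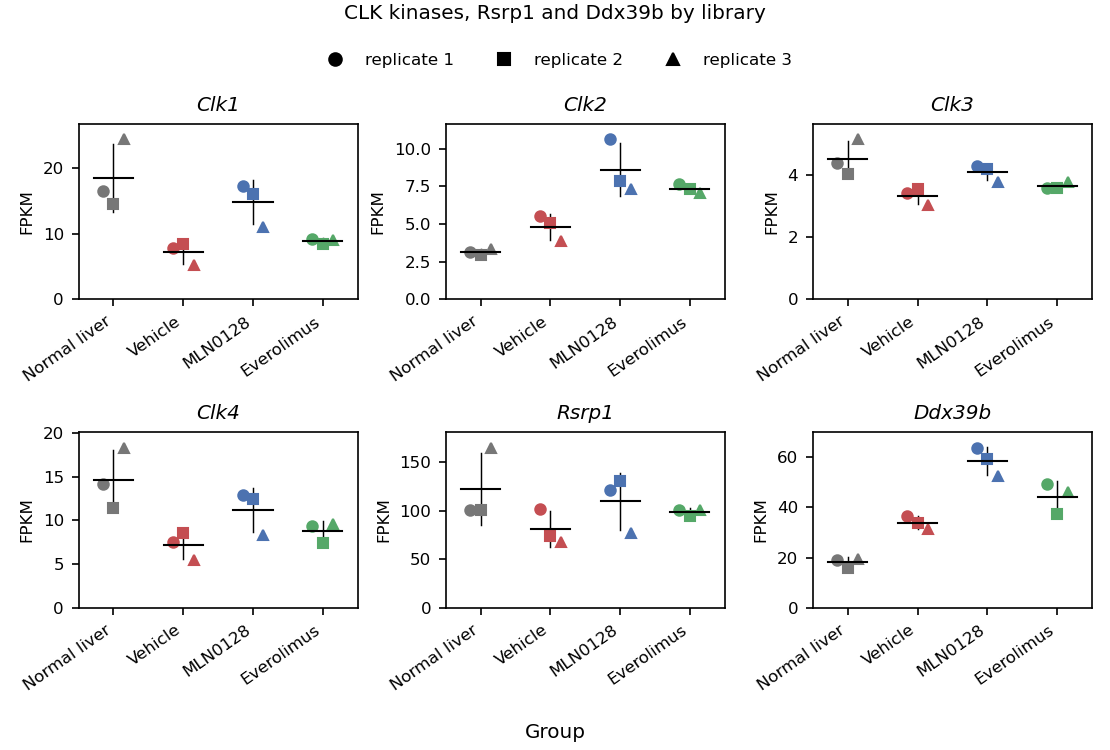
Points give the FPKM of *Clk1* to *Clk4*, *Rsrp1* and *Ddx39b* in each library, by replicate number, with the group mean (bar) and SD (line) of 3 libraries. *Clk1* is lowest in the vehicle tumors at 5.22 to 8.48 FPKM and reaches 11 to 17.3 with MLN0128, while *Ddx39b* is at 31.4 to 36.4 with vehicle and 52.6 to 63.8 with MLN0128.

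In the other splicing lists, MLN against VEH gave mixed directions. Of the 33 other splicing regulators, 8 were higher and 3 lower, with *Luc7l3* (0.88), *Luc7l* (0.79) and *Srrm2* (0.66) higher, of which the first pair belong to the U1-associated LUC7 family, and *Taf15* (-0.53), *Raly* (-0.50) and *Ptbp3* (-0.44) lower. Of the U snRNP proteins 1 was higher, *Snrnp70* (0.81), and 2 were lower. Of the SF3 and U2AF proteins 2 were higher and 3 lower, *Phf5a* (-0.86) among the latter, and of the tri-snRNP proteins 2 were higher and 1 lower. Of the TREX list 1 was higher and 2 were lower, of the decay list 1 was higher and 1 lower, and of the 5 SR kinases outside the CLK family 0 were called.

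For EVE against VEH, the question was what everolimus did to these genes in the tumor, and the 3 VEH libraries were those of the comparison with MLN. *Clk2* was higher and *Srsf12* lower, that is 1 and 1 of 39, where 3.78% of all tested genes were higher and 6.05% lower. The member median was 0.25 against 0.03 over all tested genes. Differences were above 0 for 38 of 39 members, the exception being *Srsf12*, beside 7878 of 14397 tested genes. The members share the same libraries, so their signs are not independent. All 3 EVE libraries lay above VEH for 14 members and below for 1, beside 17.6% and 14.8% of all tested genes. With treat 0 were called, beside 0.0347% of all tested genes higher and 0.570% lower. At an unadjusted p under 0.05 in limma, 13 were higher and 1 lower, beside 13.3% and 13.5%. Under plain totals 2 were higher and 1 lower, beside 4.95% and 5.74%. Wherever 1 member was lower or below in these counts it was *Srsf12*, whose direction was fixed by the filter.

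*Clk2* was at 7.66, 7.3 and 7.08 FPKM in EVE, each above the highest VEH library, with a log2 difference of 0.53 (SE 0.14, adjusted p = 0.0409). *Clk1* was at 9.21, 8.4 and 9.07 FPKM (0.29, SE 0.22, adjusted p = 0.421), *Clk4* at 9.32, 7.41 and 9.54 (0.27, SE 0.21, adjusted p = 0.445) and *Clk3* at 3.58, 3.58 and 3.78 (0.10, SE 0.11, adjusted p = 0.608). The *Clk3* libraries lay just above VEH, and those of *Clk1* and *Clk4* overlapped with it. *Ddx39b* was at 49.4, 37.2 and 46 FPKM, above every VEH library but not called (0.37, SE 0.14, adjusted p = 0.108), and *Rsrp1* at 101, 94.7 and 101 (0.30, SE 0.24, adjusted p = 0.46). *Srsf12* was at 0.235, 0.178 and 0.268 FPKM (-0.45, SE 0.11, adjusted p = 0.0299), again with a direction that the filter fixed. *Ddx39* was at 26.8, 21.8 and 26.2 FPKM, in the range of VEH (-0.02, SE 0.13, adjusted p = 0.934).

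The largest difference, singled out after its values were seen, was that of *Hnrnph3*, at 6.87, 4.26 and 7.71 FPKM in EVE against 4.46, 3.67 and 3.53 in VEH, which overlapped and was not called (0.55, SE 0.17, adjusted p = 0.0607). EVE replicate 2 was the lowest EVE library for 34 of 39 members and the highest for 0. Without it 7 members were higher, *Ddx39b* (0.48, adjusted p = 0.0421) among them, with no share of all tested genes to set beside that count. The *Clk2* call was lost whichever library was left out, with log2 differences of 0.41 to 0.62 and adjusted p from 0.0535 to 0.161. Of the other splicing regulators, 3 were higher and 0 lower: *Luc7l3* (0.71), *Tial1* (0.58) and *Khsrp* (0.52). In the remaining 6 lists (U snRNP, SF3 and U2AF, tri-snRNP, decay, export, SR kinases outside the CLK family) 0 genes were called.

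The drugs were set against each other directly, since a call with one and not with the other does not show that they differ. MLN0128 binds the catalytic site of mTOR, and everolimus is a macrolide that binds FKBP12, and both were given at 1 mg/kg per day. Of 39 members, 0 were higher with MLN than with EVE and 2 were lower, *Srsf9* and *Hnrnpa3*, where 3.99% of all tested genes were higher and 5.54% lower. The member median was -0.07 against -0.03 over all tested genes, with 12 of 39 above 0, beside 6625 of 14397 tested genes. All 3 MLN libraries lay above all 3 EVE libraries for 3 members, *Clk1*, *Clk3* and *Ddx39b*, and below for 7, beside 12.5% and 15.2% of all tested genes. At an unadjusted p under 0.05 in limma, 2 members were higher and 9 lower, beside 11.6% and 15.4%. With treat 0 were called, beside 0.00695% of all tested genes higher and 0.0347% lower.

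*Srsf9*, an SR protein close in sequence to SRSF1, was at 19.3, 21.6 and 25.5 FPKM in MLN and 34.8, 30.5 and 32.4 in EVE (-0.54, SE 0.14, adjusted p = 0.0383). *Hnrnpa3*, a relative of *Hnrnpa1* also known for mRNA transport, was at 69.5, 70.6 and 75.3 FPKM in MLN and 109, 84.9 and 113 in EVE (-0.49, SE 0.13, adjusted p = 0.0374). The groups did not overlap for either gene. VEH stood at 26, 25.5 and 26.3 FPKM for *Srsf9*, where every EVE library was above it, and at 93.6, 93.8 and 84.7 for *Hnrnpa3*, where every MLN library was below it. Both calls were lost with plain library totals, at -0.41 (adjusted p = 0.117) and -0.35 (adjusted p = 0.0905), and without any 1 library other than MLN replicate 3 or EVE replicate 2.

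The genes that were higher with MLN than with vehicle were not shown to differ between the drugs. For *Clk1* the difference of MLN from EVE was 0.65 (95% confidence interval 0.18 to 1.13, adjusted p = 0.0809), for *Ddx39b* 0.40 (0.11 to 0.70, adjusted p = 0.0829), for *Clk2* 0.19 (-0.13 to 0.50, adjusted p = 0.451) and for *Srsf11* 0.33 (-0.08 to 0.75, adjusted p = 0.286). The intervals allow a difference of more than 1 on the log2 scale for *Clk1* only. With plain library totals *Clk1* (0.79, adjusted p = 0.0282) and *Ddx39b* (0.54, adjusted p = 0.0161) were higher with MLN, 2 members higher and 0 lower, beside 8.30% and 2.80% of all tested genes, and with FPKM rescaled to the same sum the counts were again 2 and 0, beside 8.72% and 1.36%. *Clk1* was also higher without MLN replicate 3 (0.84, adjusted p = 0.0348). *Clk3* was at 0.14 (adjusted p = 0.454), *Clk4* at 0.31 (adjusted p = 0.38) and *Rsrp1* at 0.11 (adjusted p = 0.825). *Ddx39* was lower with MLN than with EVE (-0.44, SE 0.13, adjusted p = 0.049). In the other lists 0 to 1 genes were higher with MLN and 0 to 2 lower, among them *Snrnp70* (0.57) and *Dyrk1b* (0.71) higher and *Phf5a* (-0.75) and *Raly* (-0.42) lower.

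**Figure D4:**
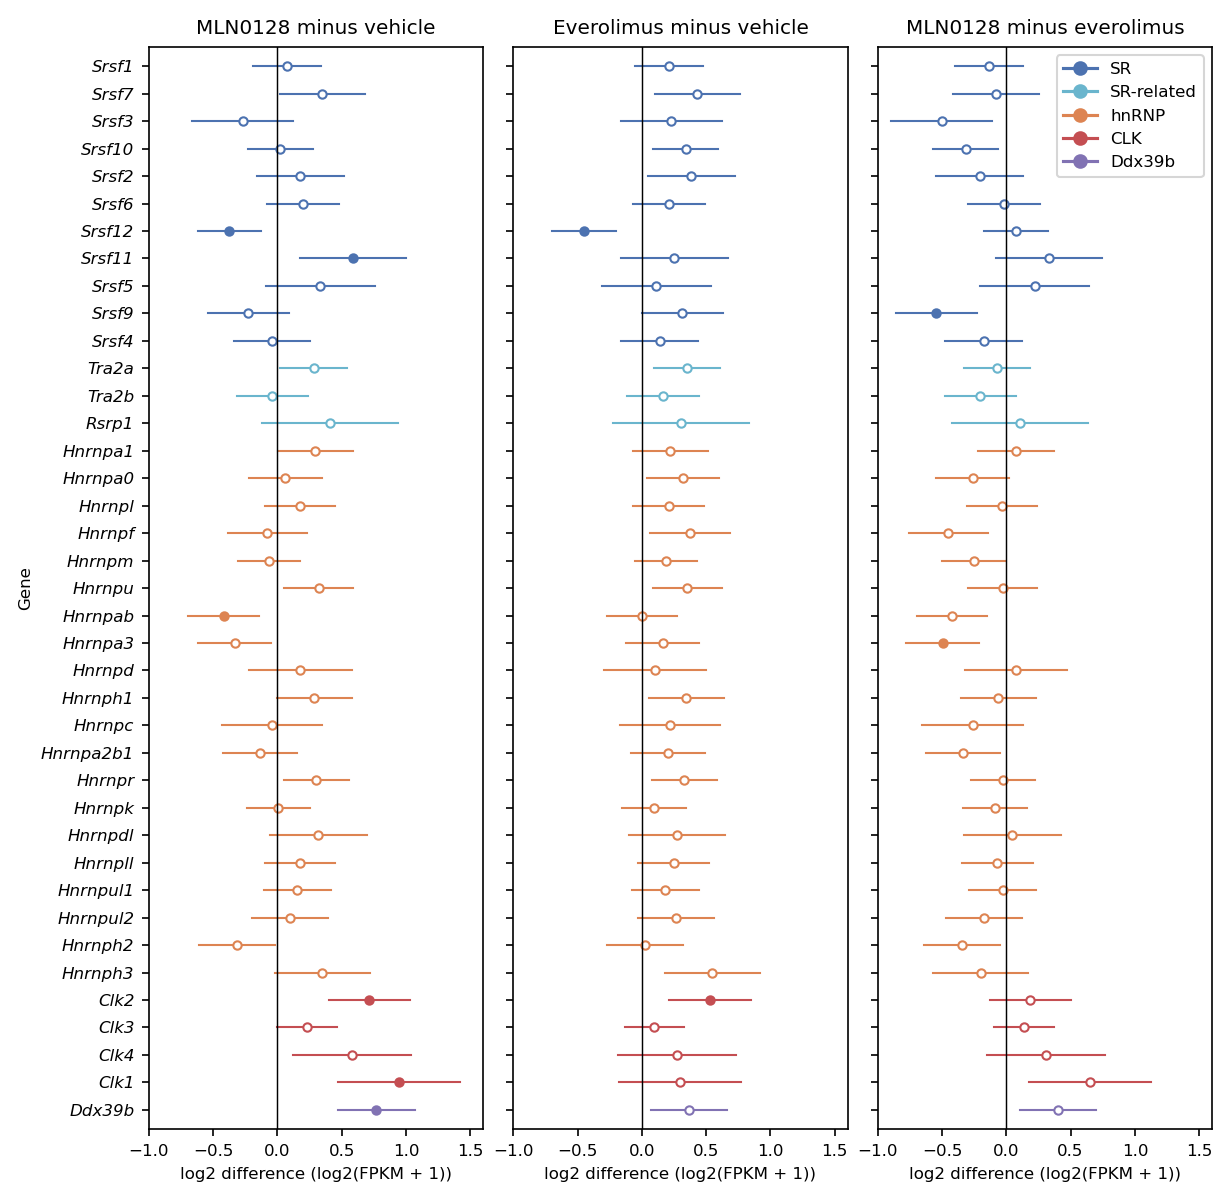
Points give the log2 difference of each member for MLN0128 against vehicle, everolimus against vehicle and MLN0128 against everolimus on the log2(FPKM + 1) scale, with 95% confidence intervals, and filled points an adjusted p under 0.05. The first pair of panels share the 3 vehicle libraries. In the middle panel all points but *Srsf12* (-0.45) lie above 0, and in the left panel *Clk1* (0.95) lies farthest to the right.

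In GENCODE M21 (GRCm38), exons of 17 members overlap exons of a different gene, 12 of them on the opposite strand, such as *Srsf2* with *Mfsd11* and *Clk3* with *Edc3*. Whether the counting used strand is not given in the sources used here, so reads of such pairs could be shared. *Clk1* (chromosome 1, 58410189 to 58424066, minus strand), *Clk2* (chromosome 3, 89164795 to 89176921, plus strand) and *Ddx39b* (chromosome 17, 35241746 to 35253707, plus strand) overlap no opposite gene. On its own strand, *Ddx39b* overlaps 2 genes, *Gm22589* and *Mir8094*. The levels of all members are those of whole genes over all exons.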

How the data were processed

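RNA from 12 mouse liver and tumor samples, 3 per group, was sequenced, and the authors deposited FPKM values per gene symbol for 17007 genes. The submitters' notes name GRCm38 and FastQC 0.11.7. The aligner, gene lengths and strandedness are not given in the sources used here. No counts were used. Steps in low FPKM values gave the reads per library (98.23% to 98.85% of values under 20 reads were whole within 0.1, 20.0% by chance), which cover counting error only. 3 reads on a transcript of 2 kb correspond to 0.0496 to 0.144 FPKM.

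The 14397 genes that reached 0.5 FPKM in 3 or more libraries were analyzed as log2(FPKM + 1), a scale that understates the change of low genes. A model with 4 group means (8 residual degrees of freedom) was fitted in limma 3.58.1 (R 4.3.3) with an intensity trend, and 2-sided p-values were adjusted by Benjamini-Hochberg over all tested genes at 0.05. The study tested counts against a fold change of 1.5, for which limma's treat stands in. Single values of 3 against 3 cannot go below p = 0.1 in an exact permutation test. Nothing says that the samples of a group were processed separately, so p-values measure the spread between these samples. Samples with the same replicate number were not more alike than others, so no block was used.

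Values in every library are given for the 8 called members with the largest absolute difference in each comparison, for the CLKs, *Rsrp1* and *Ddx39b*, and other called members are named. Members and lists were chosen with earlier results of these data known. Alternatives changed the pseudocount (0.1), filter, scaling, libraries, trend, threshold and block. Plain library totals, MLN replicate 3 alone and members without *Srsf12* were added after seeing the data. The scripts were tested on simulated data. Figures were drawn with matplotlib 3.10.9.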

Additional observations from a re-analysis of the deposited data

How the results depend on the processing

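Results below give members higher and lower of 39, and the cause of each change was not tested. Where no share of all tested genes is given above for a setting, as with a library left out, its counts have no background beside them. For VEH against NL, *Clk3*, *Clk4* and *Rsrp1* turned positive with each library's FPKM rescaled to the same sum (0.68, 0.16 and 0.62), and with plain library totals *Clk3* (0.38), *Rsrp1* (0.36), *Hnrnph3* (0.32), *Srsf4* (0.45) and *Hnrnph2* (0.65) did. The counts there were 37 and 0 with a median of 1.81, and 35 and 0 with a median of 1.54, while treat gave 10 and 1. For MLN against VEH, rescaling to the same sum gave 19 and 0 (median 0.42), plain totals 16 and 1, treat 0 and 0 and MLN replicate 3 alone 0 and 0. The 6 libraries compared alone, and members without *Srsf12*, left 1 lower. For EVE against VEH, the 6 libraries alone and treat gave 0 and 0, plain totals 2 higher, and members without *Srsf12* 0 lower. For MLN against EVE, rescaling to the same sum (median 0.17) and plain totals gave 2 and 0, and the 6 libraries alone, treat and MLN replicate 3 alone gave 0 lower.

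With the replicate number as a block, VEH against NL gave 27 and 4, MLN against VEH 3 and 1, EVE against VEH 1 and 0, and MLN against EVE 0 and 0. Deviations of same-numbered samples correlated from -0.289 to 0.148, and those of differently numbered samples from -0.287 to 0.396. Same-numbered samples were thus not more alike than others. Deviations from means of 3 samples sum to 0, so these values cannot exclude pairing.

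Leaving out 1 library gave 25 to 29 higher, 2 to 5 lower and a median of 0.60 to 0.73 for VEH against NL. It gave 3 to 7, 0 to 3 and 0.12 to 0.24 for MLN against VEH, 0 to 7, 0 to 1 and 0.17 to 0.33 for EVE against VEH, and 0 to 1, 0 to 5 and -0.16 to -0.01 for MLN against EVE. Depth limits *Srsf12*, with at most 64 reads.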
